A study of Mus musculus with 12 samples.

Results

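This section describes which transcripts were abundant, which were scarce and which were listed at 0 in attached control kidney epithelial cells. The members were all 31026 entries of the authors' deposited table for suspension in control cells, ranked by the value that the table gives for the attached control group. They came from 3 of the 12 samples of the series. No comparison between conditions was made.

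The cells were cultured kidney epithelial cells of C57BL/6 mice that carried Rosa-CreER, a tamoxifen-activated Cre recombinase expressed from the broadly active Rosa26 locus, with no floxed or deleted Jnk gene named for them. They were grown as an attached layer. The study set these cells against cells of the same kind held in suspension for 4 hours, and against attached and suspended cells that lacked Jnk1 and Jnk2, to ask what the JNK kinases do when detached epithelial cells die, a process named anoikis. The labels give neither the nephron segment from which the cells were taken, nor the age of the mice, nor whether Cre had been activated in the controls, nor whether the 3 samples were separate cultures.

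The kidney tubule is a single layer of polarised epithelium divided into segments, each with its own set of transporters. The proximal tubule takes back most of the filtered glucose, amino acids, phosphate and bicarbonate, the thick ascending limb and distal tubule take back salt, and the collecting duct adjusts water, sodium and acid. Cells of the layer are joined by tight junctions, which set what passes between cells, and by adherens junctions, desmosomes and gap junctions, and they rest on a basement membrane. Cultured tubule cells are known to lose part of the segment-specific programme and to take on features of injured or regenerating epithelium.

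Levels are in FPKM, fragments scaled by transcript length and by the size of the library, so levels of different genes can be set side by side. The table gives 1 FPKM value for the whole group and none per sample, so no SD, interval or test can be given, and the depth of the libraries is unknown. Genes that stand next to each other in the order of levels therefore cannot be told apart, and where values are given from the highest down, the order is that of the table and shows no difference beyond error. An entry is called detected here at 1 FPKM or more, and a lower value says only that the transcript was below that level. A threshold of this kind has no gap at its edge: Wnt5a at 1.00006 FPKM and Zfp40 at 1.00022 FPKM lay just inside it, and Mzf1 at 0.998 FPKM lay just outside.

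Of the 31026 entries, 11624 were detected and 12060 were listed at 0. Entries that matched a protein-coding gene of RefSeq numbered 20015, of which 10906, or 54.5%, were detected and 3570 were listed at 0. That 54.5% is the background against which the counts of each gene list are given. The detected protein-coding entries had a median of 16.4 FPKM. The fullest class above the threshold was 10 to 100 FPKM, with 6241 protein-coding entries, against 3760 at 1 to 10 FPKM, 839 at 100 to 1000 FPKM and 66 at 1000 FPKM or more. Named genes made up most of the detected entries, whereas only 374 of 7786 entries named by a sequence accession and 44 of 670 small RNA entries were detected. Of 4834 entries whose locus spans under 200 bases, 4808 were listed at 0.

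**Figure D1:**
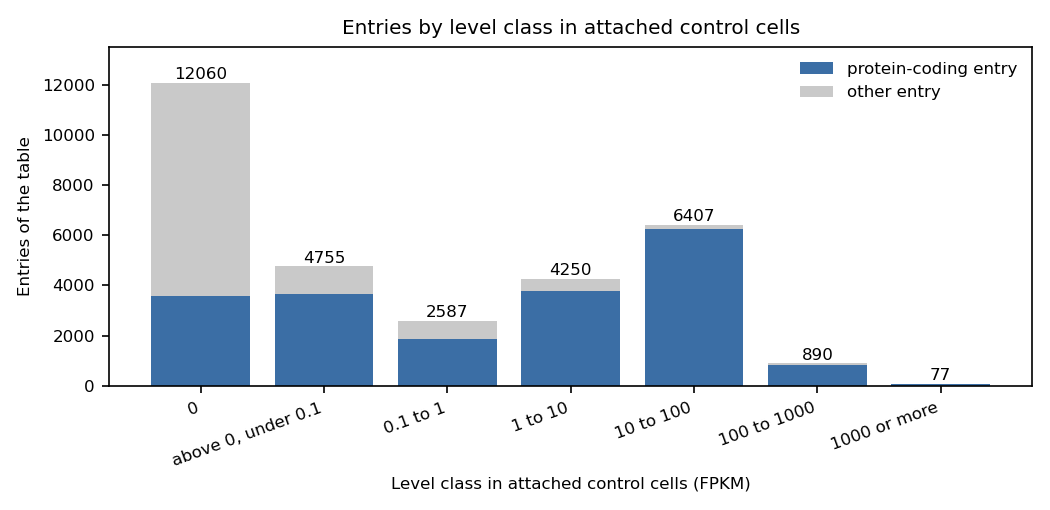
Number of entries (vertical axis) in each class of FPKM (horizontal axis) in attached control cells, with protein-coding entries in blue and all others in grey. The 12060 entries listed at 0 were mostly not protein-coding, and the classes from 1 FPKM upwards were mostly protein-coding.

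A few entries held much of the summed FPKM. The 77 entries at 1000 FPKM or more held 40.7% of it, and the 6407 entries at 10 to 100 FPKM held 27.4%. The 100 highest entries held 43.6%, but 1 entry alone held 20.6%. This entry, AK204943,AK219945, stood at 152855 FPKM and has no gene symbol. It spans 796 bases at chr5:129844968-129845763 (mm10), overlapping exons of the plus-strand chaperonin gene Cct6a as GENCODE draws that gene, while the table's own Cct6a entry lies upstream of it and stood at 216 FPKM. Without that entry the 100 highest held 29.0%. Other entries named by an accession also stood near the top, among them DQ552508 at 7982 FPKM and AK199184 at 7971 FPKM, whose loci span 55 and 83 bases, lengths at which an FPKM rests on few positions. The mitochondrial chromosome had 8 detected entries out of 10, together 1.61% of the summed FPKM, led by DQ539915 at 4458 FPKM and by Cox2 at 4096 FPKM. This Cox2 is the mitochondrial subunit of cytochrome oxidase, not the prostaglandin synthase gene Ptgs2, which stood at 12.7 FPKM.

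The highest named gene was Spp1, at 8328 FPKM. Spp1 (chr5:104435111-104441053) encodes osteopontin, a secreted matrix glycoprotein that binds integrins and is made by injured tubule cells. Eef1a1, the translation elongation factor that brings aminoacyl-tRNA to the ribosome, followed at 5698 FPKM, and S100a6, a small calcium-binding protein, stood at 4987 FPKM. Spp1 thus stood in the range of the most abundant housekeeping transcripts. Below these and the mitochondrial Cox2 came Nupr1, a small stress-induced chromatin protein, at 3399 FPKM, and Tpt1, the translationally controlled tumour protein, at 3205 FPKM. Akr1b3, the aldose reductase that makes sorbitol, an osmolyte of the inner medulla, stood at 2923 FPKM. S100a11, a calcium-binding partner of annexins, was at 2884 FPKM, and Ppia, the cyclophilin A prolyl isomerase, at 2666 FPKM. Fxyd2, the gamma subunit that tunes the kidney sodium pump, was the highest transport gene of the table, at 2027 FPKM. The entry SH3d19, at chr3:85971407-86080437, stood at 2631 FPKM. It is separate from the entry spelled Sh3d19, an adaptor protein gene, which stood at 60.7 FPKM. What gave the SH3d19 entry its level was not tested.

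Ribosomal protein genes filled most of the rest of the top. They were 45 of the 100 highest entries, 96 of their 101 entries were detected, and the detected ones had a median of 799 FPKM. Rpl41 at 1968 FPKM, Rplp1 at 1871 FPKM and Rps12 at 1666 FPKM led them, and together the class held 10.2% of the summed FPKM. These genes have many processed copies elsewhere in the genome, and reads shared with such copies cannot be separated here. Eef2, which moves the ribosome along, was at 1487 FPKM.

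The cytoskeleton was the next class in view. Tmsb4x, the actin monomer binder thymosin beta, was at 1592 FPKM, Tpm1, a tropomyosin, at 1267 FPKM and Actb, cytoplasmic beta actin, at 1054 FPKM. Among intermediate filaments, the keratins of simple epithelia led. Krt7 was at 1481 FPKM, Krt18 at 1071 FPKM, Krt8 at 887 FPKM and Krt19 at 249 FPKM, whereas the mesenchymal filament gene Vim was at 6.21 FPKM, a small fraction of any of those 4. Only 9 of 44 keratin genes were detected, or 20.5%, against 54.5% of protein-coding entries. Krt5, a keratin of basal cells, was at 1.22 FPKM. Tubulins were lower than actin, led by Tubb4b at 266 FPKM.

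Glycolytic genes were all detected, 19 of 19, against 54.5% of protein-coding entries. Pyruvate kinase Pkm, at 1336 FPKM, and Gapdh, at 1266 FPKM, led them. Oxidative phosphorylation genes of the nucleus were detected at 90 of 96 entries, led by the ATP synthase subunit Atp5b at 757 FPKM, with none among the 100 highest. The medians over detected entries were 98.1 FPKM for glycolysis and 134 FPKM for oxidative phosphorylation, values that cannot be told apart without a spread. Chaperones and lysosomal proteases had Hspa8, the constitutive heat shock protein, at 1312 FPKM and Ctsd, cathepsin D, at 1282 FPKM. Igfbp7, a secreted binder of insulin-like growth factors, was at 1478 FPKM, and Ctgf, a matricellular protein and classic target of YAP, at 815 FPKM. Thbs1, the matrix protein thrombospondin, was at 622 FPKM. Prdx5, a peroxiredoxin, and Ftl1, the ferritin light chain, were at 908 and 865 FPKM.

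Some of the 100 highest entries fell in none of these classes. Cldn4, a claudin of the distal nephron, was at 1328 FPKM. Cryab, a small heat shock protein found in the inner medulla, was at 1253 FPKM and Plat, tissue plasminogen activator, at 1143 FPKM. Ly6a, the surface antigen also known as Sca-1, was at 1187 FPKM, and Gdf15, a secreted stress cytokine, was at 1042 FPKM. Spint2, an inhibitor of epithelial serine proteases, was at 873 FPKM. These genes encode tight junction, stress and secreted or surface proteins, and their levels were near or above that of Krt8.

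**Figure D2:**
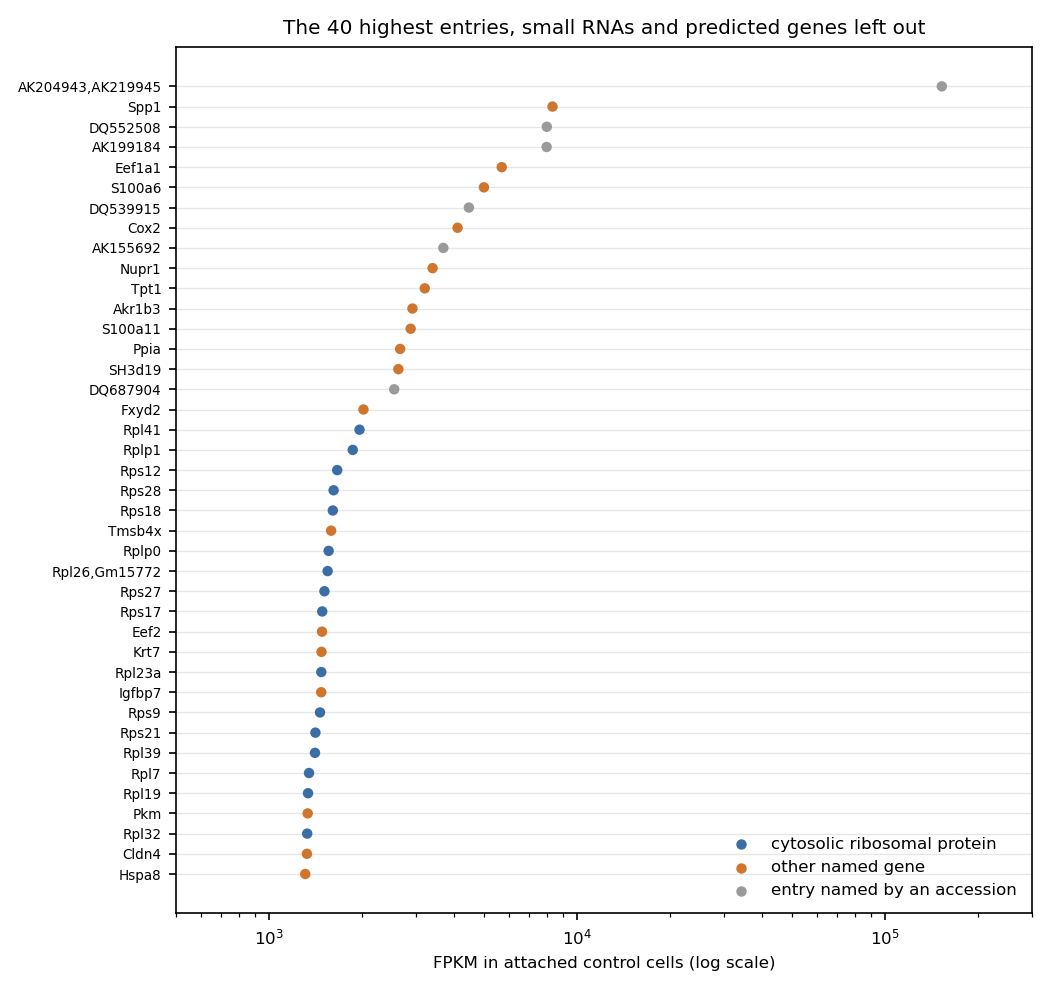
FPKM on a log axis (horizontal) of the 40 highest entries (vertical) left after small RNAs and predicted genes, with cytosolic ribosomal proteins in blue, other named genes in orange and entries named by an accession in grey. One accession entry stood at 152855 FPKM, Spp1 followed at 8328 FPKM, and from Rpl41 at 1968 FPKM downwards ribosomal proteins filled most places.

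Transcripts of different level classes differed in make-up. The 66 protein-coding entries at 1000 FPKM or more had a median transcript length of 1070.5 bases and 5.5 exons, against 3140.5 bases and 10 exons at 10 to 100 FPKM. Entries listed at 0 had 1879 bases and 3 exons, with a median GC content of 43.9%, against 50.2% at 10 to 100 FPKM. At 100 to 1000 FPKM the medians were 1925 bases and 7 exons, so a short length was not particular to entries listed at 0. These figures describe the longest protein-coding transcript that GENCODE gives for each gene, not the transcripts expressed. The highest class thus had short transcripts with few exons, and the class at 0 had short ones poor in GC. Olfactory receptor genes, of which 1009 were listed at 0, were not set apart here. The dependence of FPKM itself on length was not tested.

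Promoters are shown because the frequency of the TATA sequence changed with the level. RefSeq gives a promoter window from 250 bases before to 50 bases after the start for 16061 of the protein-coding entries. The sequence TATAAA, searched on the strand of the gene, was found in 8.68% of all windows. It was in 20.7% of windows of genes listed at 0, in 3.41% at 10 to 100 FPKM and in 14.9%, or 7 of 47, at 1000 FPKM or more. The share anywhere in the window was thus lowest at 10 to 100 FPKM and higher at both ends. The median GC content of the windows in these classes was 43.7%, 62.0% and 60.7%, in the same order. What part GC content had in the shares was not tested. With the first base of TATAAA kept to 40 to 20 bases before the start, where a TATA box usually lies, the shares were 6.10%, 0.705% and 2.13%, and 2.84% over all windows. At 1000 FPKM or more this was 1 of 47 windows, so the share in that place was not above that over all windows. The sequence CCAAT, searched on both strands, was in 39.0% of all windows and in 25.5% at 1000 FPKM or more. In the other classes the CCAAT share was 35.5% to 42.3%. In 3 of the 7 windows, those of Rps28, Rplp0 and Rps2, TATAAA lay after the start. The other 4 are printed from RefSeq on GRCm38.p6 (the build called mm10), 60 bases each, 5′ to 3′ on the strand of the gene, with TATAAA in capitals, and 2 genes of the same level without it follow for contrast.
Ppia: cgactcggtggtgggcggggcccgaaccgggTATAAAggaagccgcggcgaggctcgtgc
Eef2: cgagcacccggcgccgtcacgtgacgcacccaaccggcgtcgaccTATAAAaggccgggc
Rpl39: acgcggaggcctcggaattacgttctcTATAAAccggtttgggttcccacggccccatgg
Spp1: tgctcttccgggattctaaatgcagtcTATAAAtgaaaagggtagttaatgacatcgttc
Krt7: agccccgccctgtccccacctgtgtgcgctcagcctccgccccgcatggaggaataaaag
Cldn4: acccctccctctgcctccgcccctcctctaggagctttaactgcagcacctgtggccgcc

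The Ppia stretch (chr11:6415807-6415866, plus strand) ends at the base before the start, and its TATAAA begins 29 bases before the start, the only one of these in the usual place. In Eef2 (chr10:81176571-81176630, plus strand) it begins 15 bases before the start. The Rpl39 stretch (chrX:37085286-37085345, minus strand) has it 96 bases before the start, and the Spp1 stretch (chr5:104434873-104434932, plus strand) 211 bases before. The Krt7 stretch (chr15:101412343-101412402, plus strand) and the Cldn4 stretch (chr5:134946935-134946994, minus strand) are the last 60 bases before the start. For these 6 genes the RefSeq start lay 0 to 38 bases from the start of the table's locus. A match of letters is a description and does not show that a factor binds there.

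Of 152 genes that mark nephron segments, urothelium or injured tubule, 56 were detected, or 36.8%, against 54.5% of protein-coding entries. The counts differed between the lists. In a culture of mixed cells, fewer cells of a type and less RNA per cell cannot be told apart in these values.

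All 15 genes of the injured or regenerating tubule list were detected, and 10 of them stood at 100 FPKM or more. Spp1 and the keratins Krt7, Krt18, Krt8 and Krt19 belong to it. Cd24a, a surface glycoprotein of progenitor and injured tubule cells, was at 545 FPKM. Of the members named after their values were seen, Lcn2, the secreted siderophore binder used as an injury marker, was at 186 FPKM, and Havcr1, the phosphatidylserine receptor KIM-1 of injured proximal tubule, at 38.3 FPKM. Prom1, a membrane protein of progenitor cells, was at 106 FPKM and Clu, the secreted chaperone clusterin, at 105 FPKM. Cdkn1a, the cell cycle inhibitor p21, was at 198 FPKM. The lowest member was Vcam1, an adhesion receptor of failed-repair tubule cells, at 1.29 FPKM. Keratins are also general epithelial genes, so the list does not mark injury alone.

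The proximal tubule list had 13 of 56 members detected, or 23.2%, against 54.5% of protein-coding entries. Slc9a3r1, the brush border scaffold NHERF1, was highest at 128 FPKM, followed by the water channel Aqp1 at 119 FPKM and the membrane endopeptidase Mme at 34.9 FPKM. Khk, the ketohexokinase of fructose breakdown, was at 11.3 FPKM and Slc4a4, the basolateral sodium bicarbonate cotransporter, at 10.9 FPKM. Among other reabsorptive carriers, named after their values were seen, the basolateral amino acid carrier Slc7a7 was at 8.37 FPKM, the phosphate and urate carrier Slc17a1 at 5.07 FPKM and the brush border amino acid carrier Slc6a19 at 4.30 FPKM. Other carriers of this segment were below the threshold. The phosphate cotransporter Slc34a1 was listed at 0, the glucose cotransporter Slc5a2 was at 0.00504 FPKM and the sulfate cotransporter Slc13a1 at 0.0792 FPKM. The endocytic receptors Lrp2 and Cubn, picked out after their values were seen, were at 0.0759 and 0.287 FPKM.

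The thick ascending limb list had 4 of 16 detected. Its highest member was Cldn19, a claudin of cation permeability in that segment, at 63.6 FPKM. The salt cotransporter Slc12a1 was at 0.0575 FPKM and uromodulin, Umod, at 0.238 FPKM, both below the threshold although they define the segment. In the distal convoluted and connecting tubule list 6 of 13 were detected. The basolateral potassium channel Kcnj16 was at 114 FPKM, the kinase Wnk1 at 54.1 FPKM, on an entry that joins several symbols, and Wnk4, a kinase that regulates salt transport, at 21.3 FPKM. The thiazide-sensitive cotransporter Slc12a3 was at 0.00384 FPKM, and the calcium-binding proteins Pvalb and Calb1 were listed at 0.

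In the collecting duct lists, 4 of 14 principal cell and 4 of 16 intercalated cell genes were detected. The sialyltransferase St6gal1 was at 39.6 FPKM. Scnn1a, the alpha subunit of the epithelial sodium channel, was at 3.53 FPKM, while the beta subunit Scnn1b was at 0.282 FPKM and the gamma subunit Scnn1g at 0.249 FPKM. The vasopressin receptor Avpr2 was at 2.51 FPKM and its target water channel Aqp2 was listed at 0. Thus 1 of the 3 subunits of the sodium channel was above the threshold, as was the vasopressin receptor but not the channel it regulates. Car2, the cytosolic carbonic anhydrase, was at 96.1 FPKM, whereas the anion exchanger Slc4a1 was at 0.0106 FPKM and the chloride bicarbonate exchanger Slc26a4, or pendrin, at 0.0263 FPKM.

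Of the podocyte list 5 of 12 were detected. Npnt, the integrin ligand nephronectin, was at 91.0 FPKM and the other 4 were at or below 4.58 FPKM, the value of the sialomucin Podxl. The slit diaphragm gene Nphs1 was listed at 0. The urothelium list had 5 of 10 detected, with the surface antigen Psca at 258 FPKM and the uroplakins Upk3b and Upk1a at 23.3 and 22.4 FPKM. The Upk1a entry is given the same locus as Cox6b1, an oxidative phosphorylation gene at 531 FPKM. Whether this bears on the Upk1a value was not tested. Krt20, the keratin of umbrella cells, was at 19.4 FPKM. The other uroplakins were lower, with Upk3a listed at 0 and Upk2 at 0.316 FPKM. At a threshold of 0.5 FPKM the podocyte list had 8 of 12 detected, in place of 5.

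Of 62 markers of other cell types, 9 were detected, or 14.5%, and 4 at a threshold of 2 FPKM. None of 12 fibroblast, 5 red cell or 5 fat cell genes reached 1 FPKM, and collagen Col1a1 was at 0.182 FPKM. Smooth muscle and pericyte genes had 3 of 9, led by the adhesion molecule Mcam at 5.66 FPKM, with actin Acta2 at 1.46 FPKM. Endothelium had 1 of 12, Plvap, a protein of fenestrae, at 1.40 FPKM. At 2 FPKM neither Acta2 nor Plvap was detected. Leukocyte genes had 3 of 12: the lipopolysaccharide receptor Cd14 at 38.9 FPKM, the lysosomal protein Cd68 at 15.1 FPKM and the pan-leukocyte phosphatase Ptprc at 1.14 FPKM. The macrophage receptor Csf1r was at 0.572 FPKM and complement C1qa was listed at 0. Of 7 nerve and glia genes 2 were detected, of which the myelin gene Mbp, at 15.6 FPKM, was the higher. The summed level of all 62 markers was 86.8 FPKM, below that of Aqp1 alone. What part other cells had in any value was not tested.

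**Figure D3:**
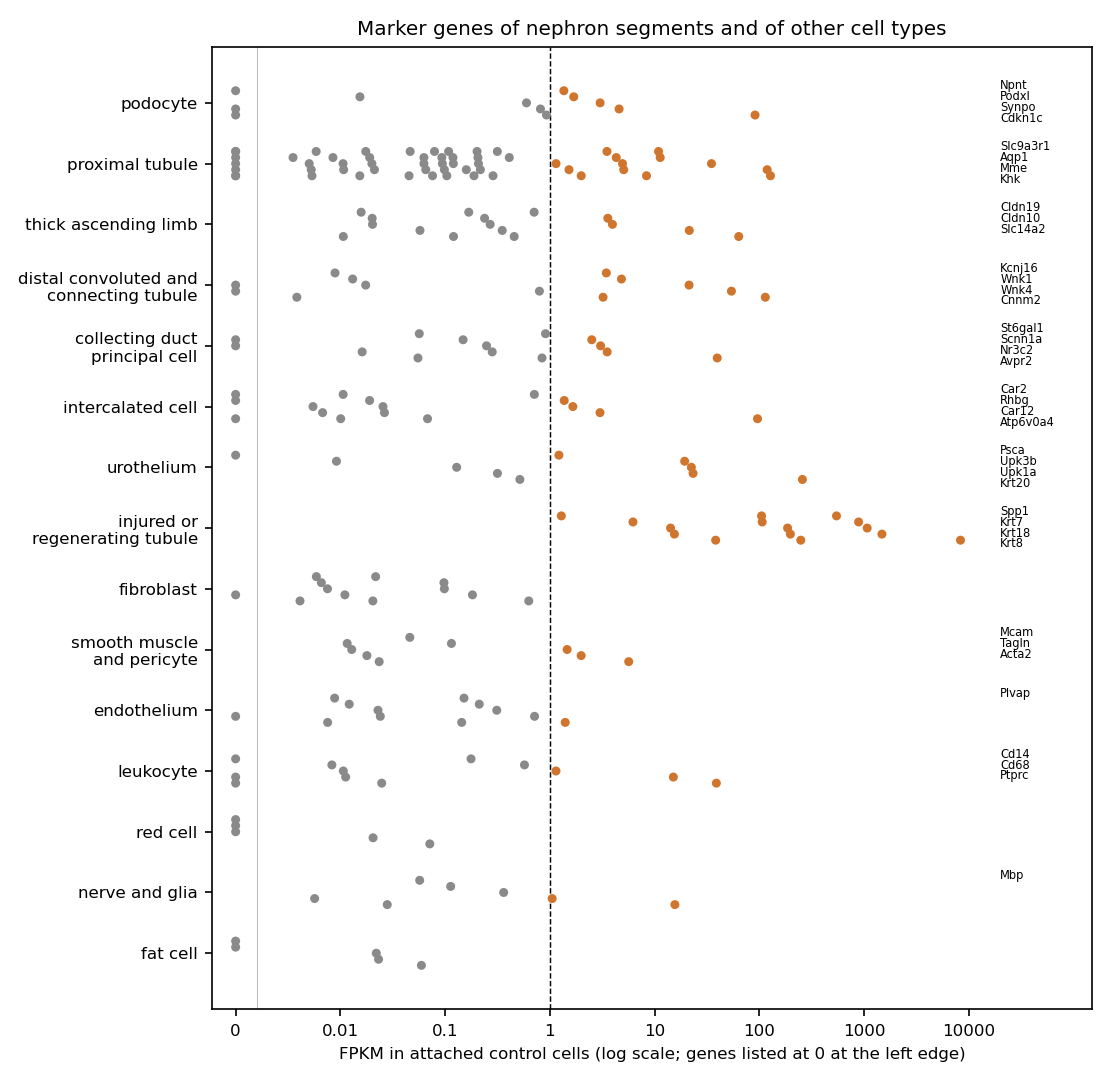
FPKM on a log axis (horizontal) of each gene in the lists of nephron segments and other cell types (vertical), in orange at 1 FPKM or more (dashed line) and in grey below it, with genes listed at 0 at the left edge and the names of up to 4 detected members at the right. All 15 injured or regenerating tubule genes lay right of the line, whereas 43 of 56 proximal tubule genes and all 12 fibroblast genes lay left of it.

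Junction genes were detected at 77 of 137, or 56.2%, near the 54.5% of protein-coding entries. Tight junction scaffold and regulator genes were nearly complete, 24 of 26, with the cingulin paralogue Cgnl1 at 155 FPKM, the tricellular receptor Lsr at 90.9 FPKM and the adhesion molecule F11r at 73.5 FPKM. Tjp1, the scaffold ZO-1, was at 54.7 FPKM and the polarity kinase Prkci at 62.2 FPKM. Of the claudins 11 of 25 were detected, or 44%, against 54.5% of protein-coding entries. Cldn4 stood at 1328 FPKM, the next, Cldn7, at 179 FPKM, and Cldn3 at 34.1 FPKM, so 1 claudin exceeded each of the others several fold. Cldn7, like Cldn4, is a claudin of the distal nephron and collecting duct. The proximal tubule claudin Cldn2 was at 0.0380 FPKM and the endothelial claudin Cldn5 was listed at 0. The entry called Cldn25, at 42.3 FPKM, lies at the gene that RefSeq calls Cldnd1, a claudin-domain protein, and is counted in the 11. The entry called Cldn26, listed at 0, lies at the gene that RefSeq calls Tmem114 and is counted in the 25.

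At adherens junctions the kidney-specific cadherin Cdh16 was highest, at 489 FPKM. It was followed by Cdh2, or N-cadherin, at 112 FPKM, Cdh1, or E-cadherin, at 102 FPKM, and Cdh3, or P-cadherin, at 63.6 FPKM. N-cadherin and E-cadherin transcripts thus stood at levels that cannot be told apart here. Both are made in the normal tubule, in different segments. Cdh11, a cadherin of mesenchyme, was at 16.4 FPKM, and 8 of 23 cadherins were detected in all. Their cytoplasmic partners were high, with the alpha catenin Ctnna1 at 440 FPKM and the beta catenin Ctnnb1 at 362 FPKM. The epithelial adhesion molecule Epcam was at 236 FPKM.

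Desmosome genes were detected at 7 of 15. The tetraspan membrane protein Perp, a p53 target, was highest at 73.2 FPKM, with the plakophilins Pkp4, Pkp3 and Pkp2 at 37.8, 32.8 and 23.0 FPKM and desmoplakin, Dsp, at 21.1 FPKM. Dsg2, the desmoglein of simple epithelia, was at 17.7 FPKM, and the epidermal forms Dsg1a, at 0.0215 FPKM, and Dsg3, at 0.115 FPKM, were below the threshold. Of 23 gap junction genes 6 were detected, led by connexin Gja1 at 50.6 FPKM. Hemidesmosome and laminin-332 genes, which bind epithelium to its basement membrane, were detected at 8 of 9. The tetraspanin Cd151 was at 226 FPKM, the laminin chains Lamb3 and Lama3 at 85.9 and 45.0 FPKM, and the integrin chain Itgb4 at 56.2 FPKM. The exception was the transmembrane collagen Col17a1, at 0.0626 FPKM.

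Transport genes were detected at 86 of 188, or 45.7%, against 54.5% of protein-coding entries. Of 14 genes of the sodium pump, which drives tubule transport, and its regulators, 5 were detected, or 35.7%. Among them were some of the highest transport genes, with the beta subunit Atp1b1 at 512 FPKM and Fxyd2, as given above, at 2027 FPKM. Vacuolar proton pump subunits were detected at 19 of 24, led by Atp6v0e at 287 FPKM and Atp6v1f at 262 FPKM. The subunits below the threshold included Atp6v1b1, listed at 0, and Atp6v0d2, at 0.0101 FPKM, forms known from intercalated cells. Atp6v0a4, also of the intercalated cell list, was above it at 1.37 FPKM, on an entry that joins several symbols. The widely expressed Atp6v1b2, picked out after its value was seen, was at 57.9 FPKM.

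Of 12 aquaporins only Aqp1 reached the threshold. Among 16 glucose transporters 3 did, with the general facilitator Slc2a1 at 131 FPKM and Slc2a8 and Slc2a9 at 3.14 and 2.29 FPKM, while the proximal tubule facilitator Slc2a2 was at 0.108 FPKM. Amino acid transporters were detected at 16 of 36. The highest were the neutral amino acid carrier Slc38a2 at 163 FPKM, the heavy chain Slc3a2 at 93.3 FPKM, its light chain Slc7a6 at 57.3 FPKM and the taurine carrier Slc6a6 at 41.2 FPKM. The renal heavy chain Slc3a1 was at 0.189 FPKM. The levels within the list thus ran from over 100 FPKM to 0.

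Of 22 sodium-proton exchangers and sodium-coupled cotransporters 12 were detected, or 54.5%, near the share over all protein-coding entries. Slc20a2, a phosphate carrier of many tissues, was at 33.7 FPKM, Slc12a2, the basolateral salt cotransporter NKCC1, at 24.5 FPKM and the bicarbonate carrier Slc4a7 at 21.4 FPKM. The brush border exchanger Slc9a3 was listed at 0. Organic ion transporters were detected at 9 of 29, led by the thyroid hormone carrier Slco4a1 at 201 FPKM, the export pump Abcc4 at 91.4 FPKM and the prostaglandin carrier Slco2a1 at 58.2 FPKM. The basolateral cation carrier Slc22a2 and the anion carrier Slc22a6 of the proximal tubule were listed at 0. Channels were detected at 21 of 35. Clic1, an intracellular chloride channel protein, was at 463 FPKM, polycystin Pkd2 at 50.5 FPKM, the leak potassium channel Kcnk1 at 46.6 FPKM and the calcium channel Trpv4 at 39.4 FPKM. The potassium channel Kcnj1, or ROMK, was at 0.269 FPKM.

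**Figure D4:**
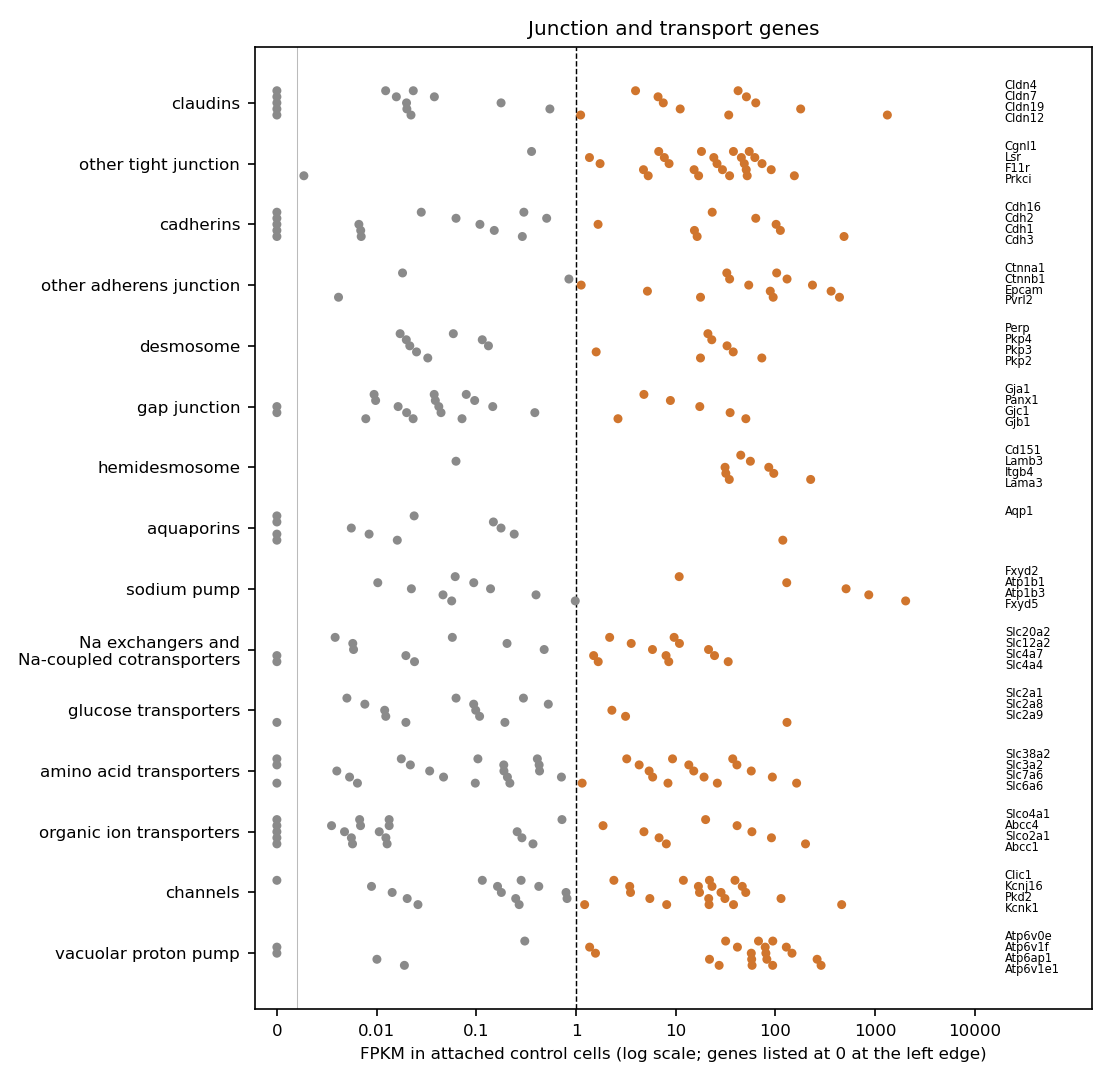
FPKM on a log axis (horizontal) of each gene in the junction and transport lists (vertical), in orange at 1 FPKM or more (dashed line) and in grey below it, with genes listed at 0 at the left edge and the names of up to 4 detected members at the right. Tight junction scaffolds, hemidesmosomes and the vacuolar proton pump lay mostly right of the line, and of the aquaporins only Aqp1, at 119 FPKM, did.

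Transcription factor genes were detected at 93 of 159, or 58.5%, near the 54.5% of protein-coding entries. Only 2 stood at 100 FPKM or more. These were Pax8, at 104 FPKM, a paired-domain factor that specifies the renal lineage, and Cux1, at 103 FPKM, a homeodomain factor of many tissues. Pax2, the partner of Pax8 in that role, was at 98.6 FPKM. Of 34 kidney patterning factors 16 were detected, with Pou3f3, a factor of the loop of Henle, at 30.3 FPKM, Irx2, of the intermediate nephron, at 25.1 FPKM and Emx2, which acts in the ureteric bud, at 21.8 FPKM. The nephron patterning factor Lhx1 and the progenitor factor Sall4 were listed at 0, and Six2, which maintains nephron progenitors, was at 0.00571 FPKM. Factors kept in adult tubules were therefore among the higher ones, and those of the embryonic progenitor were below the threshold.

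Tubule differentiation factors were detected at 16 of 28. Hnf4a, a nuclear receptor that drives the proximal tubule programme, was at 0.00875 FPKM. The epithelial ETS factors Ehf and Elf3 were at 73.7 and 54.9 FPKM, and Grhl2, a grainyhead factor that controls junction genes, was at 24.6 FPKM. These general epithelial factors were thus well above the threshold while Hnf4a was below it. The distal factor Tfap2b, picked out after its value was seen, was at 17.5 FPKM.

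Among injury, plasticity and mesenchymal factors 13 of 20 were detected, with Sox4 at 72.1 FPKM, the YAP partner Tead1 at 28.7 FPKM, Runx1 at 23.0 FPKM and Sox9, induced in injured tubules, at 15.5 FPKM. The factors that repress E-cadherin were split. Snai1 was at 0.0874 FPKM, Snai2 at 0.437 FPKM, Zeb1 at 0.982 FPKM, just under the threshold, and Zeb2 at 0.283 FPKM. Twist1, picked out after its value was seen, was at 14.1 FPKM. Of 48 nuclear receptors 24 were detected, or 50%, near the 54.5% of protein-coding entries. Nr2f6 was at 59.5 FPKM, the oxysterol receptor Nr1h2 at 47.0 FPKM and the retinoic acid receptor Rarg at 35.4 FPKM. None of 6 Gata and none of 13 Tbx genes were detected, families set apart after the values were seen. Their highest members, Gata3 at 0.909 FPKM and Tbx15 at 0.599 FPKM, lay above a threshold of 0.5 FPKM.

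The Hox genes, homeodomain factors laid out along 4 clusters that record position along the body axis, differed in level between paralogue groups. In paralogue groups 1 to 10, which act from the hindbrain to the lumbar region, 28 of 30 genes were detected, with a median of 13.2 FPKM. In groups 11 to 13, which act most posteriorly, 0 of 9 were detected, and the highest was Hoxc13 at 0.913 FPKM. Hoxc13, Hoxa11 at 0.881 FPKM and Hoxc11 at 0.855 FPKM lay close under the threshold, so the boundary at 1 FPKM parts them only narrowly from Hoxa2, at 1.04 FPKM, and Hoxc8, at 1.09 FPKM. At a threshold of 0.5 FPKM these 3 genes of groups 11 to 13 were detected too, which brought cluster A from 9 to 10 and cluster C from 6 to 8. Hoxa11 and Hoxd11, the latter at 0.0543 FPKM, are known to be needed together for growth of the embryonic kidney.

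Cluster B was the highest, with a summed level of 322 FPKM over its 10 genes, and 8 of them were detected. Hoxb7, whose promoter is active in the ureteric bud, was at 71.6 FPKM, Hoxb9 at 67.6 FPKM, Hoxb2 at 59.0 FPKM, and Hoxb8 and Hoxb6 at 39.4 and 39.3 FPKM. Hoxb3 was at 16.5 FPKM, Hoxb5 at 15.2 FPKM and Hoxb4 at 13 FPKM, and Hoxb1 was listed at 0. Cluster D followed at 119 FPKM, with Hoxd8 at 46.5 FPKM, Hoxd10 at 35.2 FPKM and Hoxd9 at 22.3 FPKM. Hoxd3 and Hoxd4 share 1 joined entry of 7.37 FPKM, which counts for both. In cluster A, at 91.7 FPKM, the highest were Hoxa10 at 32.5 FPKM, Hoxa9 at 14.8 FPKM, Hoxa7 at 13.3 FPKM and Hoxa5 at 12.8 FPKM. Hoxa3, Hoxa6, Hoxa4 and Hoxa2 ranged from 1.04 to 4.97 FPKM. Cluster C was lowest, at 60.3 FPKM, with Hoxc10 at 29.7 FPKM, Hoxc6 at 17.0 FPKM and Hoxc9 at 6.72 FPKM, and with Hoxc4, Hoxc5 and Hoxc8 from 1.09 to 2.23 FPKM. In clusters A and C the highest gene was the last before group 11, in cluster D it was group 8 and in cluster B group 7.

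**Figure D5:**
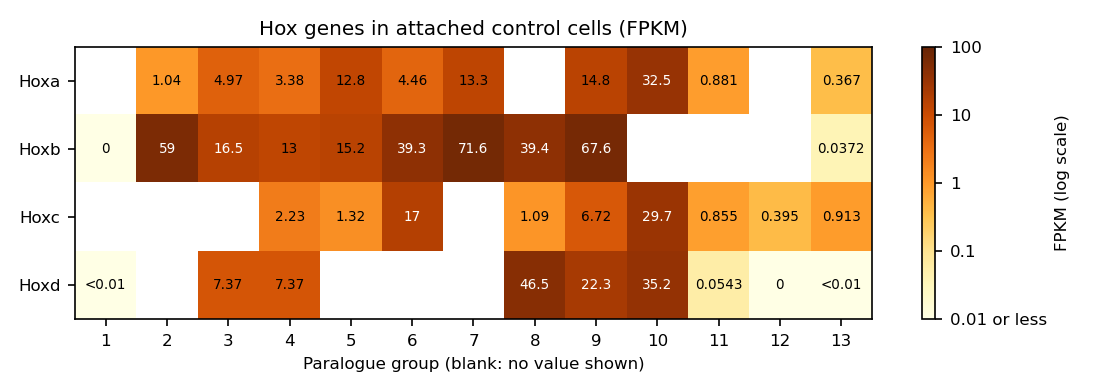
FPKM of 38 Hox genes by cluster (rows) and paralogue group (columns), coloured on a log scale, with the value in each box and blank boxes where no value is shown. All genes at 1 FPKM or more lay in groups 1 to 10, led by Hoxb7 at 71.6 FPKM, and groups 11 to 13 held none.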

How the data were processed

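RNA was column-purified with a DNase step and messenger RNA was sequenced on Illumina libraries, per the labels' protocols. Cufflinks 1.0.3 with Cuffdiff, TopHat and Bowtie, and the build mm10, are named in the submitters' processing notes; other versions, the annotation and the read length were not given in those sources. The authors deposited 4 tables of group FPKM values. The attached control column of the suspension table in control cells was described, and the same group in the genotype table of attached cells served as an alternative. It differs by a factor of 0.0895 on the log2 scale (SD 0.000442 over 11624 entries). No sample's values are in these tables, so the depth is unknown.

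Entries were ranked by FPKM with Python 3.11.15 and pandas 2.3.3. Symbols or synonyms were matched to RefSeq where the chromosome and locus overlapped, for 22623 entries (2172 by synonym), leaving 8403 unmatched. Locus starts count from 0 in the table and are given counting from 1. Steps were checked on simulated data. A symbol on several entries takes its highest, and 571 entries join several symbols.

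The members and gene lists were chosen with earlier results of these data known. The rule named the 25 highest entries without small RNAs or predicted genes, the 3 highest of each class of abundant genes, up to 6 detected and 6 undetected members per list, and every detected Hox gene. Other names are marked where they stand, except in the paragraphs on abundant entries and chromosomes, whose further names were chosen after their values were seen. Alternatives were other thresholds, another table, scaling and leaving out entries. Some genes are not reported here by name.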

Additional observations from a re-analysis of the deposited data

How the results depend on the processing

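The counts of entries at 1 FPKM or more stayed within 1.5 times of 11624 under every alternative run, from 10812 at a threshold of 2 FPKM to 12379 at 0.5 FPKM. With FPKM rescaled as TPM are, 119 entries stood at 1000 FPKM or more, in place of 77. The share of the 10, 100 and 1000 highest entries was 28, 44 and 69.9% with small RNA entries left out. Without the highest entry, an alternative chosen after seeing the data, those shares were 9.16, 29 and 62.4%. At 2 FPKM, 4 markers of other cell types were detected in place of 9. Among the 200 highest entries, 74 were ribosomal and 48 fell in no class. Over the 38 lists, the count of detected genes moved by more than 1.5 times in 3 lists at 0.5 FPKM, 5 at 2 FPKM, 1 in the genotype table and 0 with entries of a symbol summed. No paired analysis was possible because the tables hold no value per sample, which also prevents leaving out a sample. The unknown depth limits what a value below 1 FPKM can show.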

Other observations

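Of 185 entries on the Y chromosome 181 were listed at 0, and Kdm5d and Uty, broadly expressed genes of the male-specific region, stood at 0.00589 and 0.00455 FPKM. Xist, the RNA that coats the inactive X chromosome, stood at 32.2 FPKM. The single detected Y entry was Erdr1, at 59.0 FPKM. Jnk1 and Jnk2, the kinase genes Mapk8 and Mapk9 that the study deleted in its other cells, stood at 9.32 and 13.6 FPKM in these controls.

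Families set apart after the values were seen spanned a wide range. None of 1082 olfactory receptor genes was detected and 1009 were listed at 0, whereas 276 of 324 Zfp zinc finger genes, or 85.2%, were detected. Of 95 potassium channel genes named Kcn, 9 were detected, or 9.47%, against 54.5% of protein-coding entries. Solute carriers were near that share, with 174 of 346 detected, or 50.3%. Among solute carriers outside the lists above, Slc4a11, a transport protein known from the corneal endothelium, stood at 235 FPKM. The mitochondrial carriers Slc25a3, for phosphate, and Slc25a5, for adenine nucleotides, stood at 389 and 322 FPKM. Of 17 Klf factors 10 were detected, or 58.8%, also near the 54.5% of protein-coding entries. The list included Klf6 at 59.8 FPKM and Klf5 at 38.8 FPKM.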
